A study of Oryza sativa with 81 samples.

Results

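The 150 gene models described here were those with the least variable counts over 81 rice libraries. They were chosen from the counts themselves. Each count was divided by its library's total outside 1 block of identifiers and scaled to a total of 1000000, which gives CPM. Among the 10153 gene models outside that block with a mean of at least 20 CPM, the 150 with the lowest standard deviation (SD) of log2(CPM + 0.5) were kept, out of 38714 gene models in the table. Because all 81 libraries entered this choice, the small spread of the members is what the rule asked for and is given as a description.

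The libraries came from 9 lines of rice (Oryza sativa) grown in a field. R998, R308, WFB and RFB were the 4 parents, and the 5 F1 hybrids were WY998 (WFB by R998), WY308 (WFB by R308), RY998 (RFB by R998), RY308 (RFB by R308) and WR (WFB by RFB). Young seedlings, young panicles (the developing flower heads) and filling panicles (heads whose grains are filling) were sampled in each line, with 3 libraries for each of the 27 groups, numbered 1 to 3, 4 to 6 and 7 to 9. All libraries were stranded and made from total RNA depleted of ribosomal RNA. The labels do not say whether the 3 libraries of a group came from separate plants, so every SD and every p-value measures the spread between these libraries.

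Genes with steady expression are often called housekeeping or reference genes, since many of them serve functions that every cell needs, such as building the cytoskeleton, making protein and turning it over. In rice, genes for actin, ubiquitin and elongation factor 1-alpha are common internal references when a transcript is measured by quantitative PCR. A reference is useful only if its level relative to total RNA stays the same across the tissues compared, and an expression value scaled to the library total depends on everything else in the library. The deposited tables do not pair the identifiers with gene names, and none of them matched the 39387 genes of the reference name table, so no member is given a name or a function, and tissue markers could not be read.

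Library totals ran from 29054241 to 45765805 counts. The left-out block, whose identifiers begin OsR498G00 and which the sources used here do not annotate, held 51.9% ± 3.15 of all seedling counts, but only 5.17% ± 0.615 of young panicle and 8.01% ± 1.32 of filling panicle counts (SD, n = 27 each). The totals that served as denominators were therefore lower in seedlings, 13433773 to 20149499, than in young panicles, 30633264 to 39807042, or filling panicles, 27270037 to 41754366. In earlier results on these data 4 libraries stood apart from their groups (R998 replicate 9, R308 replicate 9, RY308 replicate 8 and RY308 replicate 4), and 143 of the 150 members were found again without them.

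The most stable gene model was OsR498G0510467600.01, 1504 bases long, with an SD of 0.0993 on the log2 scale and a mean of 51.8 CPM. In young seedlings its lowest, median and highest libraries held 44.5, 48.8 and 54.9 CPM, in young panicles 47.5, 52.4 and 57.7 CPM, and in filling panicles 47.6, 54.5 and 59.8 CPM. The 3 tissues overlapped, with seedlings lying lowest, and the highest of all 81 libraries was 1.34-fold above the lowest. The next was OsR498G0613075200.01 (SD 0.102), whose libraries ran from 38.2 to 50.8 CPM in seedlings, from 42.3 to 55.8 in young panicles and from 38.9 to 51.5 CPM in filling panicles. OsR498G0713357600.01 (SD 0.106) had medians of 31.6, 30.2 and 30.9 CPM in seedlings, young panicles and filling panicles, and its tissue means lay within 1.03-fold of each other. The tissues of both genes overlapped over most of their ranges.

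At the other end of the list the spread was modest too. The last member inside the limit was OsR498G1120016900.01 (SD 0.1662), with 105, 124 and 144 CPM as lowest, median and highest in young seedlings, 146, 154 and 165 in young panicles and 120, 147 and 171 in filling panicles. Its seedling and young panicle libraries did not overlap, although filling panicles overlapped both. OsR498G0408012900.01, the member before it (SD 0.1661), had medians of 104, 108 and 110 CPM in these tissues and reached its highest value, 156 CPM, in R998 replicate 8. The first gene models outside the limit were OsR498G0306232800.01 (SD 0.1666) and OsR498G0509768700.01 (SD 0.1668), so the limit fell in a continuous range of values and not at a gap.

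**Figure D1:**
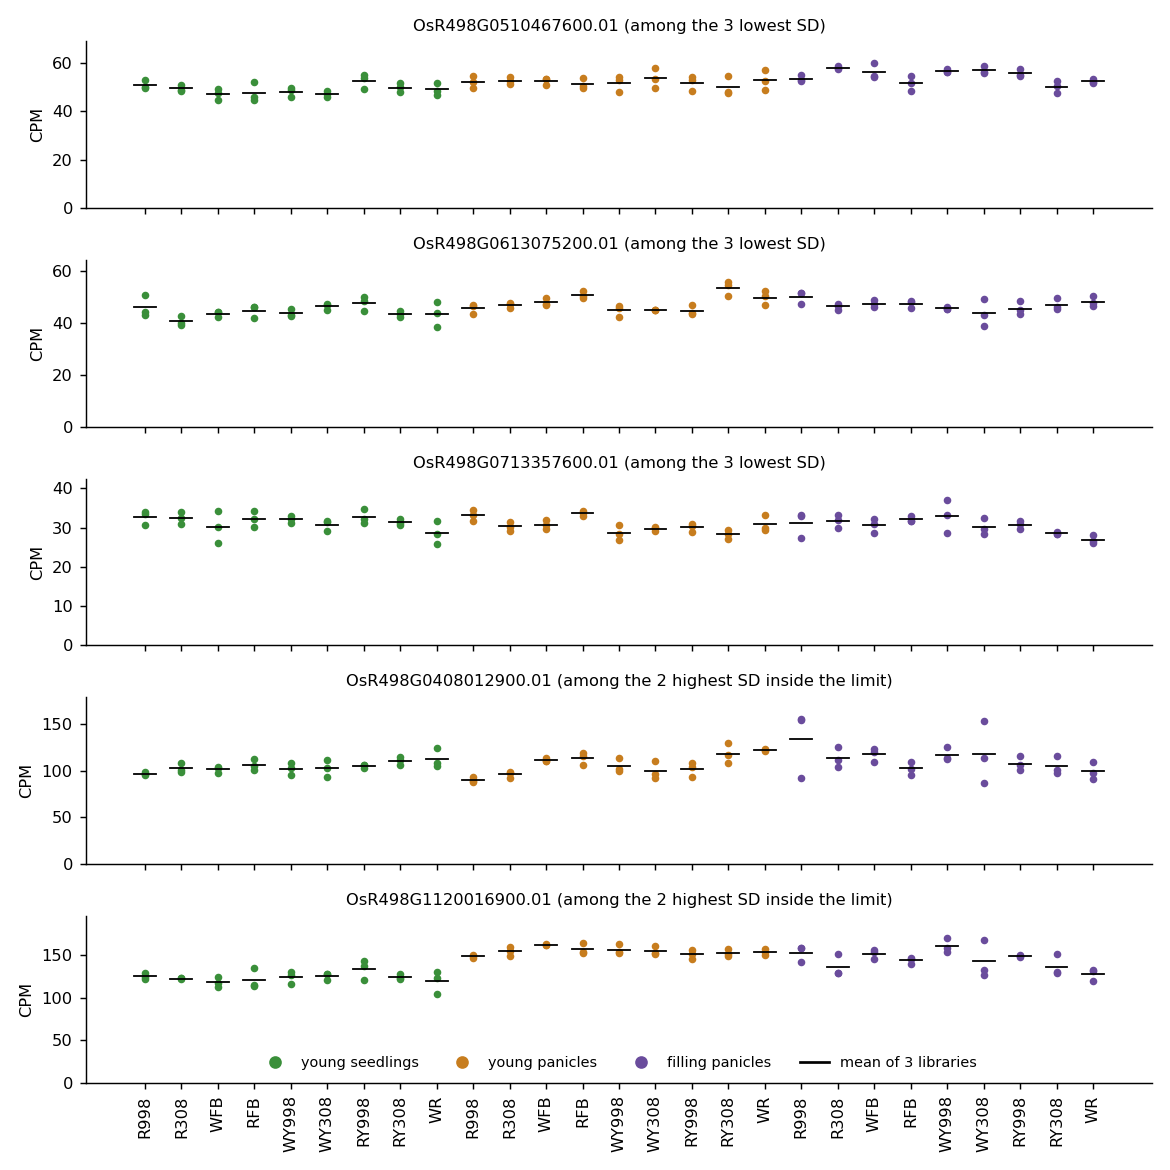
CPM (vertical axes, from 0) of the 3 members with the lowest SD and the 2 with the highest, in each of the 27 groups of line and tissue. Points are libraries coloured by tissue and black bars are means of 3 libraries; the last gene, OsR498G1120016900.01, has its young panicles (146 to 165 CPM) above its seedlings (105 to 144 CPM).

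Over the whole list, the SD ran from 0.0993 to 0.166 with a median of 0.150, beside a median of 0.623 over the 10153 gene models. The ratio of a member's highest to its lowest library ran from 1.34-fold to 2.18-fold with a median of 1.64-fold, against 4.92-fold over the 10153. Only 4 of the 150 members reached a 2-fold range, as did 94.4% of the 10153. Tissue means of a member differed by at most 1.26-fold, with a median of 1.11-fold, against 2.40-fold. No member reached a 1.5-fold difference between tissues, a size that 79.4% of the 10153 reached.

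The members covered a wide range of levels. Mean CPM ran from 20.03 to 411 with a median of 53.2, beside 47.4 over the 10153, and 70 members had a mean of 20 to 50 CPM, 49 had 50 to 100 and 31 had more. Gene length, which the rule did not use, ran from 820 to 6065 bases with a median of 1723 bases, beside 1666. On the deposited FPKM scale, which divides by length and by the whole library total, members had mean levels of 5.20 to 141 with a median of 26.1, beside 22.3. The lowest of these FPKM levels belonged to OsR498G0816046700.01, which is 3638 bases long, and the highest to OsR498G0100109900.01, which is 1361 bases long. The gene with the largest mean CPM, OsR498G0204748300.01 at 411 CPM, is the longest member at 6065 bases and had a mean FPKM of only 53.2, below the 123 of OsR498G1019253800.01, a gene of 2216 bases at 352 CPM. At the low end, OsR498G0409492800.01 (20.03 CPM, 2571 bases) and OsR498G0613303100.01 (20.6 CPM, 1114 bases) had mean FPKM levels of 6.16 and 14.6.

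**Figure D2:**
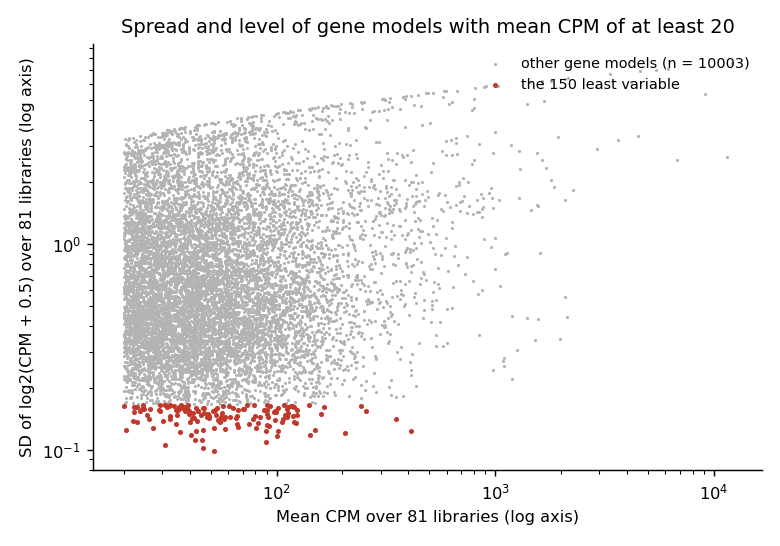
SD of log2(CPM + 0.5) over 81 libraries (vertical, log axis) against mean CPM (horizontal, log axis) for gene models with a mean of at least 20 CPM. The 150 members form the lower edge, with SDs of 0.0993 to 0.166, and span means from 20.03 to 411 CPM.

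By the block number in their identifiers, members came from all of blocks 01 to 12. Block 01 held most, 23 members or 15.3%, beside 14.4% of the 10153, and block 06 held 18 members or 12%, beside 7.90%. Block 03 held 10.7% of the members and 14.5% of the 10153. Only 3 pairs of members were next to each other in identifier order among all 38714 gene models. Across the 81 libraries their CPM correlated with a Pearson's r of 0.332, 0.150 and 0.616.

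Counting error was smaller than the spread that was left. The SD expected from counting alone had a median of 0.0396, and the measured SD of a member was 1.95 to 9.18 times the counting SD with a median of 3.62, beside 12.3 over the 10153. No member was within 1.5 times its counting SD, and neither was any other of the 10153.

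When each member's sum of squares was divided between tissues, lines within a tissue and libraries within a group, the shares had medians of 23.1% for tissue, 37.1% for line and 36.2% for library. Over the 10153 the shares were 84.1%, 9.59% and 5.13%. If libraries varied with no difference between groups, the degrees of freedom alone would give 2.5%, 30% and 67.5%. Tissue was the largest share in 42 members, line in 60 and library in 48, while tissue was the largest in 88.0% of the 10153. The members thus held examples of each kind of remaining variation.

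Tissue was the largest share in OsR498G0101407000.01, at 73.1%. Its lowest, median and highest libraries were 32.2, 35.8 and 38.8 CPM in seedlings, 27.9, 31.7 and 34.98 in young panicles, and 33.5, 40.1 and 43.4 in filling panicles. By their medians filling panicles lay highest and young panicles lowest, but the filling range covered most of the seedling range, and seedlings and young panicles shared values from 32.2 to 34.98 CPM. In OsR498G0204669200.01, with a tissue share of 71.1%, the medians were 97.4 CPM (seedlings), 105 CPM (young panicles) and 119 CPM (filling panicles), and the lowest filling library, 102 CPM in WY308 replicate 9, lay inside the range of both other tissues.

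Line was the largest share in OsR498G0714805600.01 (77.5%) and OsR498G0100149000.01 (76.99%). In young seedlings OsR498G0100149000.01 was highest in the parent R998, with 140, 135 and 134 CPM in its 3 libraries. Its hybrids RY998, with 127, 130 and 125 CPM, and WY998, with 116, 124 and 120 CPM, came next. These 9 libraries lay above all those of the other 6 lines, which ran from 91.2 to 109 CPM. In filling panicles R998 again held 135, 128 and 134 CPM and WY998 held 125, 134 and 130 CPM. RY998, at 129, 112 and 117 CPM, and RFB, at 116, 128 and 117 CPM, were spread below and into that range there, and in young panicles R998, at 111, 112 and 124 CPM, overlapped with WFB at 116, 112 and 108 CPM.

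OsR498G0714805600.01 was set apart by WFB in filling panicles, where WFB held 63.2, 57.1 and 63.4 CPM. Its partner R998 held 40.2, 42.0 and 38.9 CPM, and their hybrid WY998 lay between them without overlap at 52.0, 53.0 and 54.2 CPM. The other WFB hybrids did not follow, with 47.4, 40.8 and 44.6 CPM in WY308 and 44.6, 45.9 and 43.4 CPM in WR. In young panicles WR was instead the highest line, at 54.02, 54.3 and 55.4 CPM, above WFB at 48.6, 50.9 and 51.9 CPM. This gene and OsR498G0815276700.01 were the only members whose line means spanned 1.5-fold in filling panicles (1.51-fold each), and no member reached that span in the other tissues.

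Libraries of the same group were the largest source of spread in OsR498G0305101800.01 (69.5%) and OsR498G0101671100.01 (69.1%). OsR498G0305101800.01 had both its highest and its lowest value of all 81 libraries in a single group, filling panicles of R998, at 129, 170 and 82.4 CPM. The lowest of these was replicate 9, 1 of the 4 libraries that stood apart. In WFB filling panicles the same gene was close, at 118, 116 and 117 CPM. It and OsR498G0203148600.01 had the largest SDs within groups, 0.167 and 0.165, while OsR498G0714613700.01 (0.0617) and OsR498G0100149000.01 (0.0661) had the smallest. OsR498G0203148600.01 ranged widely within WY308 young panicles, at 84.7, 101 and 147 CPM.

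Spread between libraries of a group was not equal over tissues. The median within-group SD of the members was 0.0908 in seedlings, lowest in young panicles at 0.0739 and highest in filling panicles at 0.132, and the 10153 had the same order with 0.142, 0.126 and 0.222. Line means spanned a median of 1.16-fold, 1.18-fold and 1.25-fold in the 3 tissues, beside 1.32-fold, 1.43-fold and 1.55-fold. Stability over all 81 libraries was also not the same as being the most stable in any 1 tissue. Only 3 members were among the 150 lowest SDs within seedlings, 13 within young panicles and 21 within filling panicles, although 79, 88 and 98 of them were in the lowest 10% of the 10153 there.

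The members moved together from library to library. For each library, the median deviation of the 150 members from their own means over the 81 libraries was taken as its shift in log2 CPM. In seedlings the shift ran from -0.10 in WR replicate 3 to 0.10 in RY998 replicate 2, and in young panicles from -0.08 in RY998 replicate 5 to 0.12 in RFB replicate 6. Filling panicles had the widest range, from -0.22 in WY308 replicate 9, where 19 of 150 members were above their own mean, to 0.17 in R998 replicate 7, where 125 were. The widest range within 1 line was also in filling panicles, where WY308 had shifts of 0.14, -0.11 and -0.22, a range of 0.36. After the shift was taken off, the median SD of the members fell from 0.150 to 0.129. Between pairs of members, the median Pearson's r over the 81 libraries was 0.26 and 81.6% of pairs were above 0, and within filling panicles the median was 0.46. These correlations describe values that share each library's denominator. Shifts were not limited to the members. Over all gene models with a mean of at least 20 CPM, the shift was -0.06 in WR replicate 3 and 0.08 in RY998 replicate 2. It was 0.19 in RFB replicate 6, -0.42 in WY308 replicate 9 and 0.05 in R998 replicate 7. In RY998 replicate 5 it was 0.03, on the other side of 0 from the members. These values also hold the tissue differences of those gene models.

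The members' shift went with the share of counts on the 10 most abundant gene models outside the left-out block. The relation is given for the members only, so nothing is read about whether it is particular to them. That share ran from 8.38% to 12.3% in seedlings, from 2.92% to 3.89% in young panicles and from 8.27% to 22.7% in filling panicles. In filling panicles, WY308 replicate 9 had 17.9% of its counts on them and R998 replicate 7 had 9.63%. Over the 27 filling libraries Pearson's r between share and shift was -0.92 and Spearman's rho -0.95, and r was -0.90 without the 2 libraries farthest from the median share. With the means of the 9 lines removed, r was -0.92. Over young panicles r was -0.60 and rho -0.57 (-0.62 without the 2 farthest libraries, -0.72 with line means removed), and over seedlings r was -0.32 and rho -0.32 (-0.16 and -0.20). These are 3 relations given as descriptions without a test, because the same values chose the members, and because share and CPM have the same denominator.

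**Figure D3:**
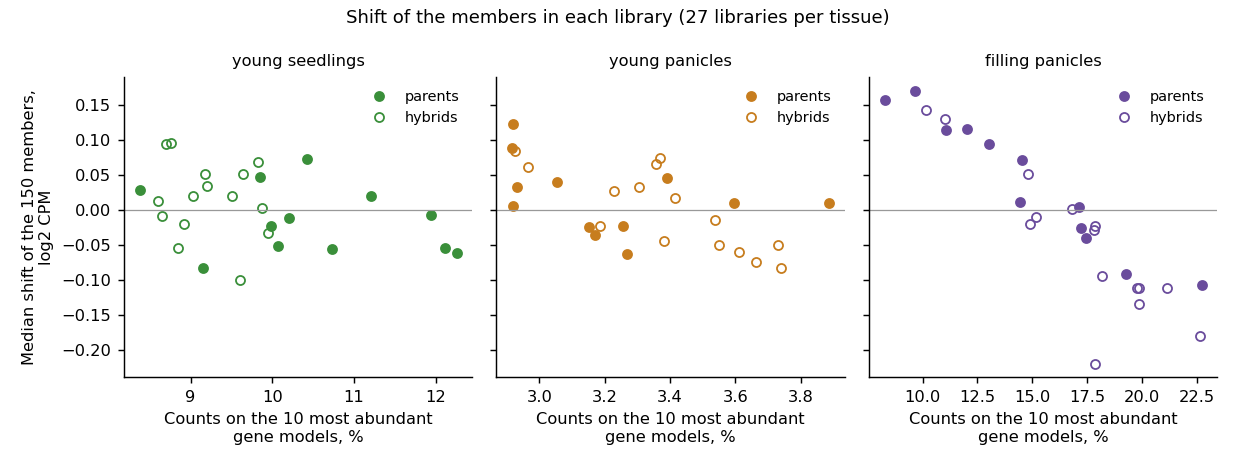
Median shift of the 150 members from their means over the 81 libraries in log2 CPM (vertical) against the share of counts on the 10 most abundant gene models in percent (horizontal), 1 panel per tissue and 1 point per library (filled for parents, open for hybrids). In filling panicles the points fall from upper left to lower right (r = -0.92), and in young seedlings they are scattered (r = -0.32).

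How alike the members looked between tissues depended on the scale. On the CPM scale of the rule, the median difference of the 150 members was -0.0042 (log2) between young panicles and seedlings, -0.0035 between filling panicles and seedlings and -0.013 between filling and young panicles, with 75, 72 and 68 members above 0. TMM scaling (a trimmed mean of M-values), which sets library sizes so that most genes do not differ, moved these medians to -0.09, 0.15 and 0.23, and 37, 130 and 146 members lay above 0. With DESeq2 size factors, another scaling of this kind, they were -0.03, 0.26 and 0.27, and 63, 146 and 150 members lay above 0. The medians of the 10153 moved with the scale as well, from 0.09, -0.16 and -0.31 on the CPM scale to 0.01, -0.01 and -0.07 with TMM and 0.07, 0.09 and -0.03 with DESeq2 factors. A scaling moves all gene models of a library alike, and the rule held the members near 0 on the CPM scale, so nothing is read from where their median lay beside that of the 10153.

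**Figure D4:**
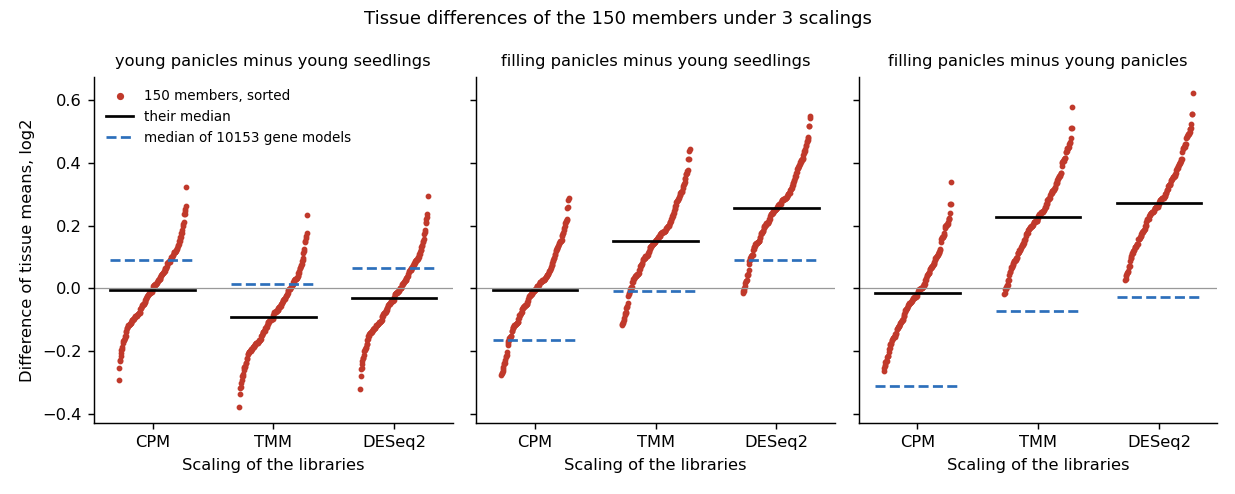
Differences of tissue means in log2 (vertical) for the 150 members, sorted, under CPM, TMM and DESeq2 scaling (horizontal), 1 panel per pair of tissues. Black bars are the members' medians and dashed blue bars the medians of 10153 gene models; in filling minus young panicles the members' median moves from -0.01 with CPM to 0.23 with TMM and 0.27 with DESeq2 factors.

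In the units as deposited, the members' levels differed between tissues. The matching values over the other gene models are not given, so nothing is read about whether this is particular to the members. The median member had a mean FPKM of 15.5 in seedlings, 31.0 in young and 29.7 in filling panicles. All 150 members were higher in both panicle stages than in seedlings, by medians of 0.95 and 0.91 on the log2(FPKM + 0.5) scale, and 53 of 150 were higher in filling than in young panicles. The deposited FPKM of OsR498G0510467600.01 was 15.7 ± 1.43 in the seedlings, 32.8 ± 1.60 in young panicles and 33.3 ± 1.78 in the filling panicles (SD, n = 27), so its seedling libraries, 13.02 to 18.2, lay below all panicle libraries, 29.5 to 36.4. FPKM divides by a total that includes the left-out block, and that total enters the FPKM of every gene model of a library alike. With that block put back into the CPM totals, the medians of the members were 25.5, 49.95 and 47.99 CPM and their median SD was 0.473. None of the 150 was then among the 150 least variable, on the CPM or on the FPKM scale.

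The choice of scale also changed which gene models were the least variable. The same rule with TMM-scaled libraries returned 55 of the 150 members, and with DESeq2 size factors 34. The members' median SD was 0.150 on the CPM scale, 0.164 with TMM and 0.182 with DESeq2 factors. Within each tissue alone it was lower with TMM than on the CPM scale, at 0.0907 against 0.101 in seedlings, 0.0957 against 0.104 in young panicles and 0.130 against 0.153 in filling panicles. The median of the 10153 was lower with TMM too, at 0.171 against 0.178, 0.202 against 0.212 and 0.236 against 0.285. In bulk tissue a change in the level of a transcript per cell and a change in the share of cells that hold it cannot be told apart on any of these scales.

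Tissues were compared over all genes with edgeR's quasi-likelihood test on TMM-scaled counts, with Benjamini-Hochberg adjustment and a threshold of 0.05. The rule used these libraries, so nothing is read from how many members passed. Between young panicles and seedlings 17 members were higher and 90 lower, where 46.1% and 40% of the 27316 genes tested were. Between filling panicles and seedlings 113 were higher and 12 lower (46.8% and 40% of all), and between filling and young panicles 137 were higher and 0 lower (42.7% and 43.3% of all). With DESeq2 size factors in edgeR the counts were 42 higher and 62 lower, 136 and 0, and 143 and 0. With the left-out block removed they were 15 and 92, 134 and 1, and 150 and 0. Shares over all genes are not given for these other settings, so nothing is read from their counts. Of the members called in the first fit 0, 0 and 1 reached 1.5-fold, as the choice of low spread would have it. The median log2 difference over all genes tested was 0.14, 0.16 and 0.01 in the 3 comparisons, against -0.09, 0.15 and 0.23 over the members.

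Among members called lower in young panicles than in seedlings, OsR498G0510948800.01 had the largest difference, -0.38 ± 0.030 (log2, SE). On the rule's CPM scale it ran from 52.9 through a median of 57.3 to 63.0 in young panicles. In seedlings it ran from 62.7 through 70.5 to 78.6, and the tissues met only at their edges. Its TMM-scaled ranges, 35.2 to 45.1 in young panicles and 46.9 to 57.0 in seedlings, did not overlap. OsR498G0101993100.01 followed at -0.34 ± 0.033. In the other direction OsR498G1120016900.01 was higher by 0.24 ± 0.024 and OsR498G0611638500.01 by 0.18 ± 0.035.

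In filling panicles OsR498G0204669200.01 was higher than in seedlings by 0.45 ± 0.022 (log2, SE) and OsR498G1120466900.01 by 0.44 ± 0.033. The TMM-scaled level of the first was 75.8, 97.1 and 115 CPM (lowest, median and highest) in filling panicles and 64.8, 71.9 and 75.6 in seedlings, without overlap, and on the rule's CPM scale the ranges overlapped at 102 to 131 and 84.9 to 105. OsR498G0916903600.01 was lower by 0.12 on the TMM scale (-0.12 ± 0.020) and OsR498G0204265700.01 by a similar amount (-0.11 ± 0.029), and neither was called with DESeq2 size factors. In the 6 refits that left out 1 replicate number of all 9 lines, the differences were -0.116 to -0.073 and -0.109 to -0.072. All were smaller in size than the main values of -0.118 and -0.113, and the smallest came without replicate 9. OsR498G0204265700.01 was also not called without the left-out block or without the 4 libraries that stood apart. Against young panicles, OsR498G0101407000.01 was higher in filling panicles by 0.59 ± 0.028 and OsR498G0714613700.01 by 0.52 ± 0.030. OsR498G0101407000.01 held 27.04, 32.3 and 39.7 TMM-scaled CPM in filling and 18.9, 21.6 and 24.4 in young panicles, so the groups did not overlap on that scale.

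Lines within a tissue were compared in the same way, for any difference among the 9 lines, and the counts are again descriptions. In seedlings 28 members were called, where 40.4% of 21813 genes tested were. In young panicles 57 members were called (73.2% of 24748 genes) and in filling panicles 35 (53.1% of 25336 genes). The number in seedlings fell to 17 without RFB replicate 3. In filling panicles it was 22 without WFB replicate 9, 59 without R998 replicate 9, and 52 without the 4 libraries that stood apart. Shares over all genes are not given for these fits, so nothing is read from the changes.

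Hybrids were set against the mean of their 2 parents, the mid-parent, a comparison the 5 crosses allow in each tissue. The rule used these same parent and hybrid libraries, so a small distance from the mid-parent on the CPM scale follows from the choice of members and is given as a description. On that scale 88.7% to 100% of the 150 were within 1.2-fold of the mid-parent in the 15 combinations of cross and tissue. Over all the gene models that the rule chose from, these shares were 50.9% to 87.1%. WR in filling panicles had the lowest share both among the members and over all those gene models. Its place is therefore not particular to the members.

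The side of the mid-parent depended on the scale. In filling panicles the median member was below the mid-parent in all 5 hybrids on the CPM scale, at -0.03 (log2) in WY998, -0.11 in WY308, -0.07 in RY998, -0.08 in RY308 and -0.13 in WR. With TMM it was above it in all 5, at 0.05, 0.07, 0.02, 0.09 and 0.10, and with DESeq2 factors it was too, at 0.03 to 0.14. The medians of the 10153 on the CPM scale were also below 0 there, from -0.10 in WY998 to -0.23 in WR. In seedlings the CPM medians were 0.00 to 0.06 and the TMM medians -0.05 to 0.01, and with DESeq2 factors all 5 were below 0, at -0.05 to -0.01. In young panicles WY998 and RY998 changed side, from -0.05 and -0.09 with CPM to 0.06 and 0.04 with TMM, WR went from 0.01 to -0.03, and RY308 stayed above 0 (0.05 and 0.07) and WY308 below it (-0.03 and -0.01).

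**Figure D5:**
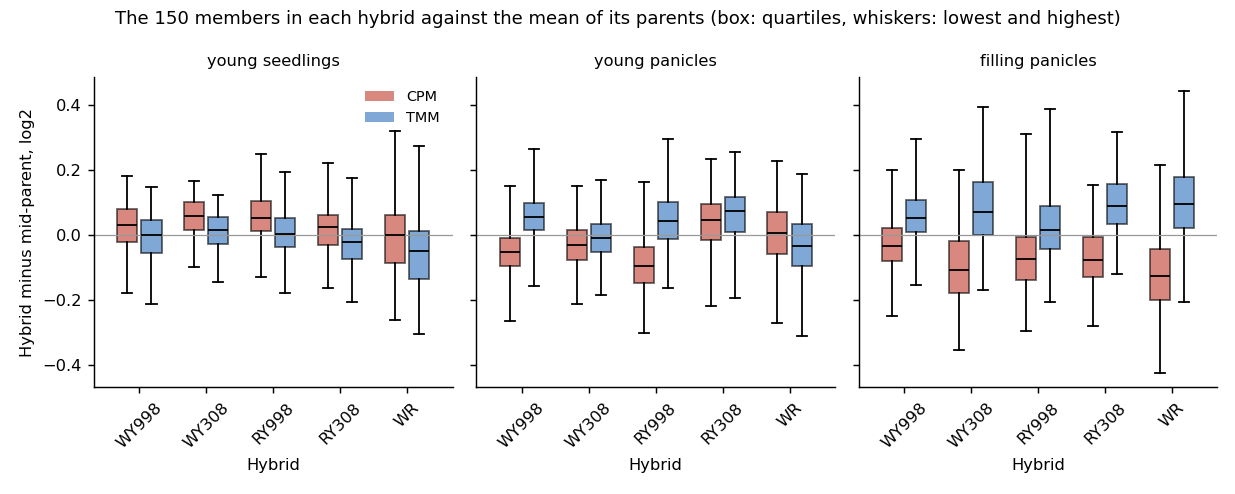
Hybrid minus mid-parent in log2 (vertical) for the 150 members in the 5 hybrids (horizontal), 1 panel per tissue, with CPM in red and TMM in blue. Boxes are quartiles with the median as a line and whiskers reach the lowest and highest member; in filling panicles the 5 CPM medians (-0.13 to -0.03) lie below 0 and the 5 TMM medians (0.02 to 0.10) above it.

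For the mean deviation over the 5 crosses, edgeR's quasi-likelihood test with the same adjustment called 3 members higher and 14 lower in seedlings, where 8.89% and 10.7% of all genes tested were. In young panicles it called 1 higher and 0 lower (1.32% and 3.45% of all), and in filling panicles 5 higher and 0 lower (2.08% and 4.91%). As the rule used these libraries, nothing is read from those counts. The number in seedlings fell from 17 to 11 without WFB replicate 1 or without RFB replicate 3. In young panicles it was 2 without WY998 replicate 6, WY308 replicate 6, RY998 replicate 4 or RY308 replicate 6. In filling panicles it lay between 0, without WFB replicate 8, and 28, without R998 replicate 9, and leaving out any 1 of 22 of the 27 libraries moved it by more than 1.5 times. Shares over all genes are not given for the fits with a library left out, so nothing is read from these changes.

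In seedlings OsR498G0204889400.01 was above the mid-parent by 0.14 ± 0.028 (log2, SE). Its TMM-scaled level was 36.3 ± 1.995 CPM in R998, 39.3 ± 1.93 in R308, 34.9 ± 1.18 in WFB and 38.0 ± 0.160 in RFB (SD, n = 3). The hybrids held 39.0 ± 0.403 in WY998, 40.2 ± 1.18 in WY308, 41.4 ± 3.21 in RY998, 41.6 ± 0.168 in RY308 and 42.1 ± 0.912 in WR. The 2 lowest hybrid means, WY998 and WY308, lay on either side of R308, the highest parent, and all 5 hybrids were above their own mid-parent on both scales. OsR498G0102614000.01 was above by 0.16 ± 0.047, also in 5 of 5 crosses, but was not called without RFB replicate 3.

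OsR498G0102369800.01 was below the mid-parent in seedlings by 0.19 on the log2 scale (-0.19 ± 0.037). Its TMM-scaled levels were 28.2 ± 1.22 CPM in R998, 25.9 ± 1.41 in R308, 28.3 ± 1.59 in WFB and 29.1 ± 0.464 in RFB, against 26.1 ± 2.62, 24.97 ± 1.22, 25.3 ± 1.35, 23.8 ± 1.56 and 23.6 ± 1.55 in WY998, WY308, RY998, RY308 and WR (SD, n = 3). The hybrid WR was lowest although its parents had the 2 highest means. OsR498G0100109900.01, the member with the highest FPKM, was below by -0.16 ± 0.038, and both genes were below in 5 of 5 crosses on the CPM and TMM scales. In young panicles OsR498G0917826800.01 was the 1 member called, above the mid-parent by 0.13 ± 0.030 and in 5 of 5 crosses on both scales. With TMM its deviations were 0.20 in WY998, 0.05 in WY308, 0.21 in RY998, 0.22 in RY308 and only 0.0031 in WR (log2). On the CPM scale they ran from 0.028 in WY308 to 0.21 in RY308.

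In filling panicles OsR498G0611638500.01 and OsR498G0204669200.01 were above the mid-parent by 0.15 ± 0.044 and 0.15 ± 0.043 with TMM. They were above it in 5 of 5 crosses on that scale but in 3 and 2 of 5 on the rule's CPM scale. The smallest TMM deviations, both in RY998, were 0.0014 and 0.04 (log2). The calls of these genes were lost in 22 and 19 of the 27 fits that left out 1 library.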

How the data were processed

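Per the labels, total RNA depleted of ribosomal RNA was sequenced with stranded libraries, and per the submitters' processing notes reads were aligned with HISAT2. No version is listed, and the sources used here name neither a counting tool nor a genome build or annotation, so reads shared by near-identical copies of a gene could be split in unknown ways. The authors deposited whole-number read counts for 38714 gene models, 452 of them without a count, and FPKM values. Every deposited FPKM value above 0 (100%) could be rebuilt to within 1% from the count, 1 length per gene model and the total of the library, which gave the lengths.

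CPM, SDs and shifts were computed from the counts with pandas 2.3.3, numpy 2.4.6 and scipy 1.17.1 under Python 3.11.15. Tests were run across all genes in R 4.3.3 with edgeR 4.0.16 (filterByExpr, TMM, quasi-likelihood, two-sided, block 00 kept), 1 fit over the 81 libraries for tissues and 1 fit of 27 libraries for each tissue, with an offset that makes the mid-parent arithmetic. DESeq2 1.42.0 gave an alternative. Tests were checked on simulated data. Each pair of libraries within a group differed by more than counting error (the lowest chi-square per degree of freedom was 5.83 and the median 31.5), and each counted as 1 sample, and groups came from the labels. The members and lists were chosen with earlier results of these data known. Genes were named by rank: the lowest and highest SD, level, FPKM, within-group SD and share of variance, and in each comparison up to 2 called members a side with the largest difference. OsR498G0815276700.01 was named after its values were seen. Alternatives were other scalings, filters, pseudocounts, measures of spread and left-out libraries.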

Additional observations from a re-analysis of the deposited data

How the results depend on the processing

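The rule returned 148 and 131 of the 150 members with pseudocounts of 0.1 and 5, 142 with the coefficient of variation, 115 with means of the 27 groups, 140 with a minimum of 10 CPM, and 140 (without WY308 replicate 9) to 150 when 1 library was left out. It returned 55 with TMM, 34 with DESeq2 size factors, 0 with block 00 kept, 0 with FPKM, 50 with the median absolute deviation, 80 with a minimum of 50 CPM (all that reached it), and 3, 13 and 21 within seedlings, young panicles and filling panicles. With no filter on low counts, members called fell to 16 (any line) and 11 (hybrid deviation) in seedlings and to 21 and 0 in filling panicles. A geometric mid-parent gave 2 hybrid calls in young panicles and 8 in filling panicles, and DESeq2 gave 6 and 16. Without the 4 libraries set apart, filling panicles had 24 hybrid calls. The causes were not tested, and without the shares over all genes for these fits nothing is read from the counts. Leaving out 1 library gave 17 to 32, 45 to 72 and 22 to 59 members called for any line in seedlings, young panicles and filling panicles, and 11 to 24, 1 to 2 and 0 to 28 for the hybrid deviation. For these too, no shares over all genes are given and nothing is read. Between young panicles and seedlings, filling panicles and seedlings, and both panicle stages, the main fit called 107, 125 and 137 members. Leaving out 1 replicate number of all lines gave 97 to 102, 122 to 133 and 136 to 148. Over all genes tested, 82.8% to 83.0%, 83.2% to 85.4% and 82.7% to 85.2% were called in these fits. Replicate numbers were not used to pair the samples in the main fits. With each line's mean taken off, same-numbered libraries of 2 lines had median correlations of -0.01, -0.04 and -0.09. By the same measure, 8, 6 and 4 of 27 libraries were closest to their own number. These values cannot settle whether the numbers pair samples. With the replicate number as a block, 22 and 17, 54 and 1, and 29 and 1 members were called for any line and hybrid deviation in the 3 tissues. These counts are also given without shares over all genes. The tissues share no numbers. Of 344 alternative values for the 17 named calls, all from fits, 291 kept their side of the threshold, 53 lost it and 0 reversed. On the rule's CPM scale, OsR498G0611638500.01 and OsR498G0204669200.01 were above the mid-parent in only 3 and 2 of 5 crosses in filling panicles.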
